A study of Mus musculus with 9 samples.

Results

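The genes described here are 47 genes of the NRF2 pathway, of glutathione metabolism and of the enzymes that remove superoxide, peroxides and electrophiles. They were listed by gene symbol and function, with no measured value in the rule but with earlier results of these data known, and each of the 47 symbols was found among the 24341 genes listed for each sample. RNA-Seq was done on mouse embryonic fibroblasts (MEFs), the connective tissue cells that grow out of embryos in culture. There were 9 samples, with 3 each of WT, *Atm-/-* and *Sirt6-/-* MEFs. The labels give the strain of every sample as C57BL/6 and the medium as DMEM with 10% FBS, and they give no age, passage or other treatment. *Atm* encodes a kinase that responds to DNA breaks, and *Sirt6* encodes a histone deacetylase. The labels name the mice that gave MEFs as wildtype, *Sirt6-/-*, P53-/- and Atm-/-P53-/-, and the study's methods list an immortalized *Atm-/-* line that also lacks p53, an immortalized *Sirt6-/-* line from another laboratory and primary MEFs, without saying which were sequenced. Loss of *Atm*, loss of p53, the origin of a line and its immortalization can therefore not be told apart in these comparisons, and neither the labels nor the methods say whether samples of one genotype came from separate embryos or cultures. The p-values below thus measure only the spread between these samples, which may be technical.

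NRF2, encoded by *Nfe2l2*, is a transcription factor whose protein is kept scarce in unstressed cells because KEAP1 presents it to a CUL3 ubiquitin ligase for degradation. Oxidants and electrophiles modify cysteines of KEAP1, and NRF2 then accumulates, pairs with small MAF proteins and binds antioxidant response elements near its target genes. These targets make and recycle glutathione and thioredoxin, conjugate electrophiles and store iron. Fibroblasts in culture are exposed to atmospheric oxygen and express most of this machinery. RNA levels, which are what was measured here, do not report how much NRF2 protein a cell holds.

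The core of the antioxidant response element is TGACNNNGC, read on either strand. The promoter stretches that hold these letters are printed because they show which member genes carry the core beside an annotated start. RefSeq promoter windows (GRCm38.p6, the build called mm10 that the submitters' processing notes name) of 300 bases, from 250 before to 50 after a start, were matched by symbol to 39 of the 47 genes. The start of 33 of their 53 windows is the first base of the RefSeq gene. That of the *Txnrd1* stretch below is not, as the stretch lies inside the gene, which begins at 82833951. The letters occurred in 10 of these 39 genes, or 25.6%, against 14.0% of the 27025 genes with a window. A gene counted when any of its windows held the letters. By window, they occurred in 10 of the 53 of these genes, against 12.4% of all 32851. The shares were not tested. The 10 stretches of 29 bases follow, 5′ to 3′ on the strand that holds the core, with the core in capitals.
*Nfe2l2* (chr2:75704885-75704913, minus strand): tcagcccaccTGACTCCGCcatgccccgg
*Gclm* (chr3:122245413-122245441, minus strand): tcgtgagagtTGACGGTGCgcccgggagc
*Txnrd1* (chr10:82859104-82859132, minus strand): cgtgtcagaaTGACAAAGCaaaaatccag
*Srxn1* (chr2:152105542-152105570, minus strand): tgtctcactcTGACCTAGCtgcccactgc
*Gsta3* (chr1:21240454-21240482, plus strand): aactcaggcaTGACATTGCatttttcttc
*Gstm5* (chr3:107895802-107895830, plus strand): caccgcccacTGACCACGCggagggcggg
*Mgst1* (chr6:138140461-138140489, minus strand): ccccgcctccTGACCGTGCcaagccccgc
*Prdx1* (chr4:116685456-116685484, minus strand): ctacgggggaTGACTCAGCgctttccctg
*Sod1* (chr16:90220696-90220724, minus strand): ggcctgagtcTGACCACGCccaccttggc
*Me1* (chr9:86695902-86695930, minus strand): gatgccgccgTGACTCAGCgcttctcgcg
Read along the gene, the core of *Srxn1* began at base 29, counted from the transcription start as base 1. The other 9 began between 6 and 240 bases before a start, and that of *Me1*, 6 bases before, runs across the start. The cores of *Prdx1* and *Me1* also hold TGANTCA, the AP-1 site, which occurred in 5 of the 39 genes (12.8%) against 8.97% of all genes with a window. By window this was 5 of 53 against 7.81% of all. A match of these letters is a description of the sequence and not evidence of binding. Many known elements of NRF2 targets lie further from the start than these windows reach, and *Hmox1*, *Gclc*, *Gsr*, *Gsta4*, *Prdx6*, *Sod3*, *Aldh3a1* and *Abcc1* were not matched to a window.

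Each sample held between 32187040 and 33837949 reads counted on genes, so 3 reads correspond to 0.0887 to 0.0932 CPM (reads scaled to a common library size). As a check of the labels, *Sirt6* was at 15.3, 12.9 and 14.99 normalized CPM in the WT samples and at 0.123, 0.154 and 0.210 in the *Sirt6-/-* samples. *Atm* RNA was not lower in *Atm-/-*, at 109, 102 and 102 CPM against 48.2, 51.7 and 51.7 in WT, and a count over the whole gene cannot show whether the deleted part is missing. *Trp53*, the gene of p53, was at 23.3, 27.01 and 27.4 CPM in *Atm-/-*, 223, 227 and 208 in WT and 279, 282 and 276 in *Sirt6-/-*. The summed level of 10 fibroblast markers (*Col1a1*, *Col1a2*, *Col3a1*, *Vim*, *Pdgfra*, *Pdgfrb*, *Thy1*, *Fn1*, *Dcn* and *Lum*) was 27668 to 30794 CPM in WT, 8737 to 8998 in *Atm-/-* and 18752 to 19145 in *Sirt6-/-*, and *Lum* was near or at 0 in every sample. Most of this sum came from *Col1a1*, *Fn1*, *Col1a2* and *Vim*, and its members did not all move with it. *Thy1* was called higher in *Atm-/-*, at 82.9, 91.4 and 87.7 CPM against 29.5, 18.9 and 24.9 in WT, and was nearly unread in *Sirt6-/-* (0.0307, 1.02 and 0.360). *Col1a2*, *Pdgfrb* and *Dcn* were called higher than WT in *Sirt6-/-* (log2 fold changes 0.72, 1.31 and 0.45), while *Col1a1*, *Col3a1*, *Vim*, *Pdgfra* and *Fn1* were called lower in both mutants. The summed neural markers (*Nes*, *Tubb3* and *Sox10*) were at 5.31 to 6.56 CPM in WT, 176 to 190 in *Atm-/-* and 218 to 236 in *Sirt6-/-*, most of it from *Nes*, while *Sox10* stayed under 1 CPM. The summed epithelial markers (*Epcam*, *Cdh1*, *Krt8*, *Krt18* and *Cldn4*) were at 20.8 to 23.8 CPM in WT, 43.3 to 48.4 in *Atm-/-* and 16.5 to 20.8 in *Sirt6-/-*, and the excess in *Atm-/-* was mostly *Krt18*. The endothelial sum (*Pecam1*, *Cdh5*, *Kdr* and *Tek*) was 3.11 to 5.15 CPM in WT, 9.81 to 12.5 in *Atm-/-* and 0.649 to 0.990 in *Sirt6-/-*, where *Kdr* made the difference and *Pecam1*, *Cdh5* and *Tek* stayed under 1 CPM in every sample. The immune sum (*Ptprc*, *Emr1*, *Csf1r*, *Cd68* and *Itgam*) was 11.1 to 12.1 CPM in WT, 3.69 to 3.97 in *Atm-/-* and 3.84 to 4.79 in *Sirt6-/-*, with *Ptprc* and *Emr1* under 1 CPM in every sample. *Myog* and *Pou5f1* had no read. The fibroblast, neural, epithelial, endothelial and immune sums moved with genotype beside every result below, and their part in these results was not tested. In such bulk samples, fewer cells of a type and less RNA per cell cannot be told apart.

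Of the 47 genes, 46 had enough reads to be tested in each comparison with WT, and both comparisons share the 3 WT samples. A gene was called higher or lower at an adjusted p under 0.05 by the quasi-likelihood test of edgeR, adjusted with the Benjamini-Hochberg method over all genes tested, with reads scaled by the trimmed mean of M-values (TMM). In *Atm-/-* 17 of the 46 genes were higher (37.0%, against 34.7% of the 13283 genes tested) and 14 were lower (30.4%, against 33.6% of all). These shares are near those of all genes, and the median log2 fold change of the 46 was 0.02, as it was over all genes. With library totals in place of TMM the median of all genes shifted by 0.16 on the log2 scale, and the split of the members became 28 higher and 11 lower, so that 71.8% of the calls were higher against 54.8% with TMM. The calls over all genes moved the same way, from 50.8% higher with TMM to 64.9% with library totals. *Abcc1*, *Gclc*, *Gpx4*, *Gstp1*, *Gstt1*, *Nfe2l1*, *Prdx3*, *Prdx4*, *Slc7a11*, *Txn1* and *Txn2* were then also called higher in *Atm-/-*, and *Gpx8*, *Prdx6* and *Sod2* were no longer called lower. In *Sirt6-/-* 23 genes were higher (50%, against 39.2% of the 13206 genes tested) and 17 were lower (37.0%, against 37.4% of all). The median of the 46 was 0.15 there, against 0.02 over all genes. A change of at least 2-fold was found as well for 9 of the 46 genes in *Atm-/-* (19.6%, against 22.5% of all genes) and 15 in *Sirt6-/-* (32.6%, against 29.3% of all). The remaining gene, *Gpx3*, a secreted peroxidase, had 0 to 6 reads a sample and was not tested.

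**Figure D1:**
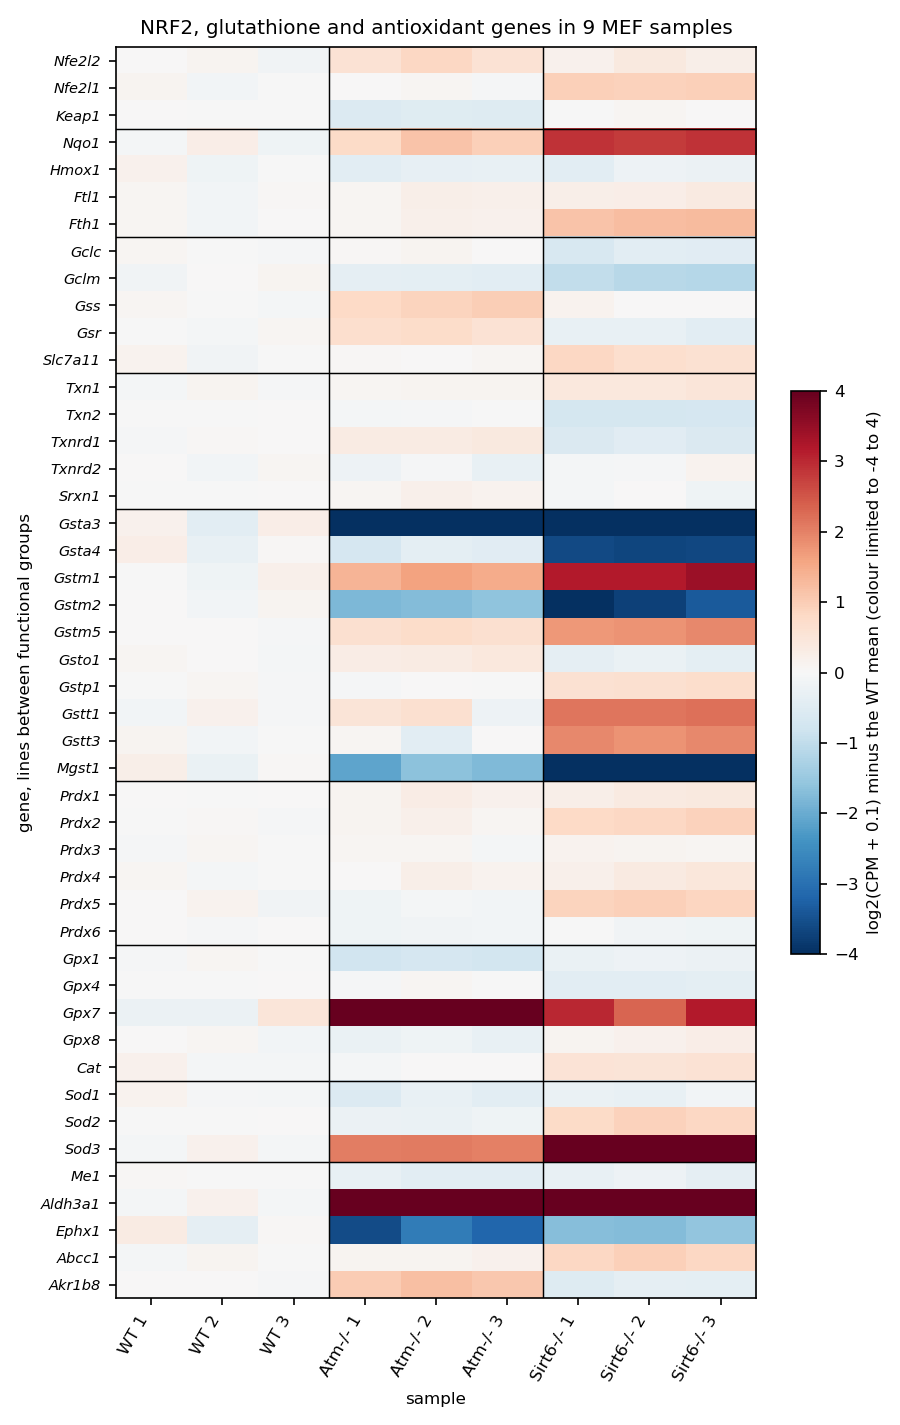
Level of each of the 46 tested genes in each of the 9 MEF samples, as log2(CPM + 0.1) minus the mean of the 3 WT samples, with colour limited to -4 to 4 and lines between functional groups. *Gsta3* is dark blue and *Aldh3a1* dark red in all samples of both mutants. *Mgst1* is dark blue and *Sod3* dark red in all *Sirt6-/-* samples, *Gpx7* is dark red in all *Atm-/-* samples, and most other genes are pale.

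The comparisons with WT share their WT samples, so joint patterns of calls are described by gene and not counted. *Gsr*, *Txnrd1*, *Gsto1* and *Akr1b8* were called higher in *Atm-/-* and lower in *Sirt6-/-*, and *Sod2* and *Gpx8* were called lower in *Atm-/-* and higher in *Sirt6-/-*. *Gss* and *Srxn1* were higher and *Keap1* and *Prdx6* lower in *Atm-/-* and were not called in *Sirt6-/-*. *Txnrd2* and *Prdx3* were called in neither. Whether such genes differed between the mutants is given by the direct comparison further on. The plot of fold changes shows that the largest values sat among the glutathione S-transferases and a few peroxide, superoxide and aldehyde enzymes.

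**Figure D2:**
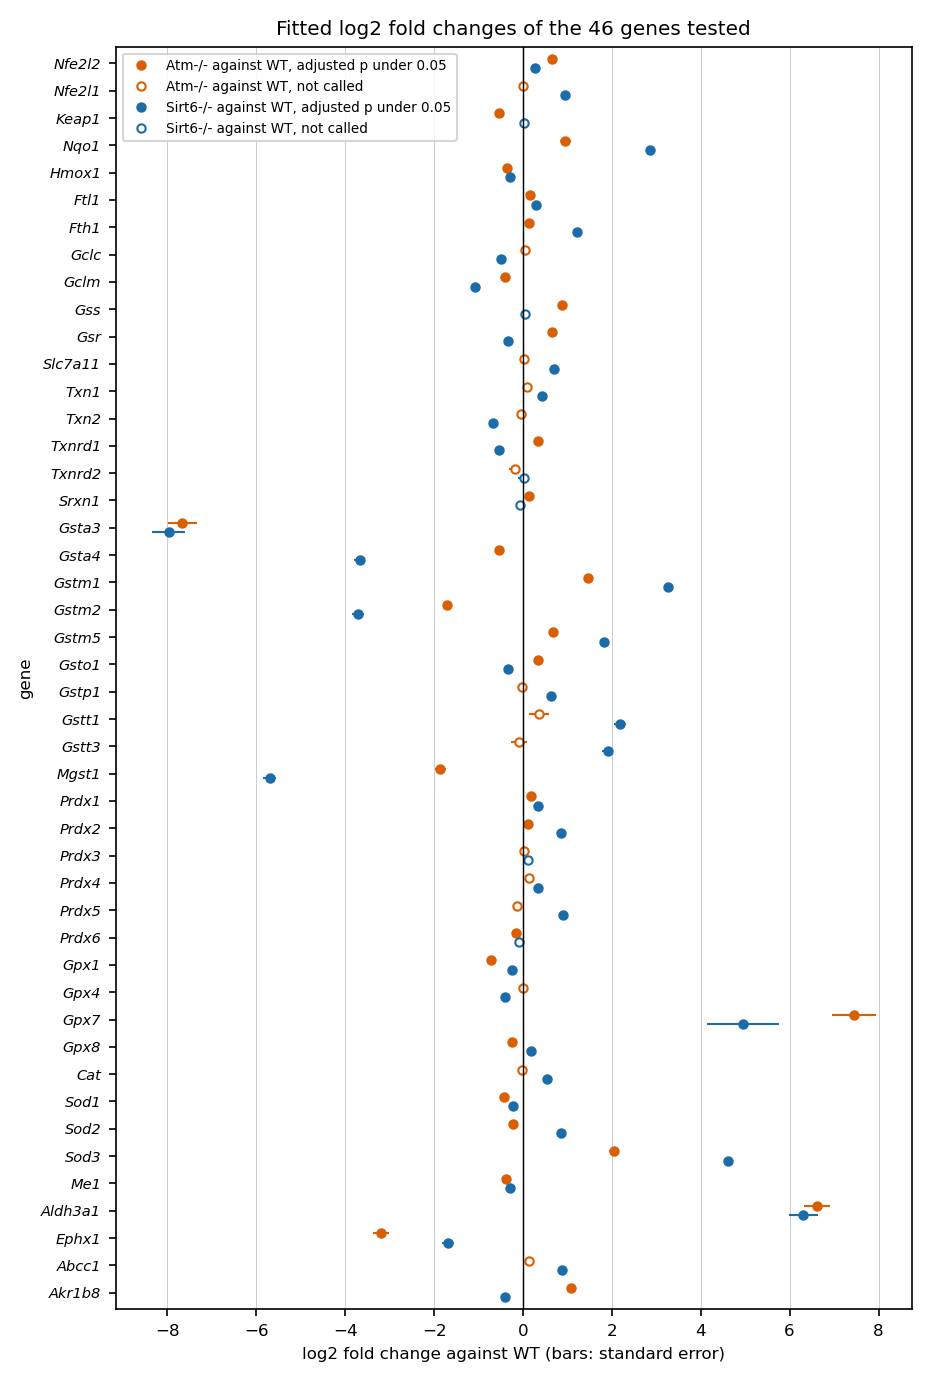
Fitted log2 fold change against WT of the 46 tested genes, for *Atm-/-* (orange) and *Sirt6-/-* (blue), with bars of 1 standard error, filled points for an adjusted p under 0.05 and open points for genes not called. Values run from -7.97 (*Gsta3* in *Sirt6-/-*) to 7.44 (*Gpx7* in *Atm-/-*), and most genes of the NRF2 axis lie within 1 log2 unit of 0.

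The regulators moved differently in the mutants. *Nfe2l2*, the gene of NRF2 itself (chromosome 2, 75675513 to 75704663, GRCm38), was at 85.7, 90.3 and 76.99 CPM in WT, 125, 148 and 125 in *Atm-/-* and 95.6, 109 and 98.3 in *Sirt6-/-*. Both mutants lay above WT without overlap, and *Atm-/-* was the highest. The log2 fold change was 0.65 in *Atm-/-* (standard error 0.073, edgeR adjusted p = 1.86e-06) and 0.26 in *Sirt6-/-* (standard error 0.067, adjusted p = 0.00261). *Keap1*, the adaptor that marks NRF2 for degradation (chromosome 9, 21229730 to 21239332), was at 86.7, 84.7 and 83.5 CPM in WT, 57.6, 60.1 and 59.05 in *Atm-/-* and 84.2, 89.7 and 85.4 in *Sirt6-/-*. It was lower in *Atm-/-*, with a log2 fold change of -0.54 (standard error 0.053, edgeR adjusted p = 4.28e-07), and in *Sirt6-/-* its samples overlapped those of WT (log2 fold change 0.026, adjusted p = 0.664). Within a sample, the RPKM of *Nfe2l2* was 1.24 to 1.43 times that of *Keap1* in WT, 2.84 to 3.31 times in *Atm-/-* and 1.53 to 1.64 times in *Sirt6-/-*. This ratio of RPKM (reads scaled by gene length and library total) does not depend on how libraries are scaled, and its 3 ranges did not overlap.

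*Nfe2l1* encodes NRF1, a relative of NRF2 that sits in the endoplasmic reticulum membrane and controls proteasome genes. Its level was 235, 200.3 and 215 CPM in WT, 218, 227 and 210.2 in *Atm-/-* and 423, 410.3 and 420.0 in *Sirt6-/-*. All 3 *Sirt6-/-* samples lay well above the rest, and those of *Atm-/-* overlapped WT. The log2 fold change was 0.95 in *Sirt6-/-* (standard error 0.055, edgeR adjusted p = 7.95e-10) and 0.0021 in *Atm-/-* (adjusted p = 0.977).

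The genes often read as reporters of NRF2 did not move together. *Nqo1*, a quinone reductase (chromosome 8, 107388225 to 107403205), was at 10.7, 13.5 and 10.03 CPM in WT, 19.5, 24.8 and 21.98 in *Atm-/-* and 84.6, 79.7 and 84.7 in *Sirt6-/-*. The 3 genotypes did not overlap, and *Nqo1* rose by a log2 fold change of 0.95 in *Atm-/-* (standard error 0.12, edgeR adjusted p = 9.42e-06) and 2.87 in *Sirt6-/-* (standard error 0.093, adjusted p = 8.84e-13), or 7.30-fold. *Hmox1*, the haem oxygenase that breaks haem down to iron, carbon monoxide and biliverdin, was at 169, 132 and 149 CPM in WT, 112, 118 and 122 in *Atm-/-* and 112, 129.5 and 127 in *Sirt6-/-*. Both mutants lay below WT, the opposite direction to *Nqo1*, with log2 fold changes of -0.36 (adjusted p = 0.000580) and -0.28 (adjusted p = 0.00448). The 10 genes whose promoter windows hold the antioxidant response core moved in either direction. In *Atm-/-* 5 of them were higher (*Nfe2l2*, *Txnrd1*, *Srxn1*, *Gstm5* and *Prdx1*) and 5 lower (*Gclm*, *Gsta3*, *Mgst1*, *Sod1* and *Me1*), and in *Sirt6-/-* 3 were higher (*Nfe2l2*, *Gstm5* and *Prdx1*), 6 lower and *Srxn1* was not called. The small rise of *Srxn1* in *Atm-/-* kept its call in only 1 of the 6 fits that left out a sample. Among all genes tested, 34.7% were higher and 33.6% lower in *Atm-/-*, and 39.2% and 37.4% in *Sirt6-/-*. Nothing is read from these counts about the core.

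The ferritin genes, whose products form the shell that stores iron, were among the most abundant RNAs of the set. *Fth1*, the heavy chain with ferroxidase activity, was at 1427, 1272 and 1385 CPM in WT, 1428, 1572 and 1521 in *Atm-/-* and 2975, 3202 and 3282 in *Sirt6-/-*. The *Sirt6-/-* samples stood far above WT, with a log2 fold change of 1.21 (standard error 0.052, edgeR adjusted p = 2.37e-11). *Ftl1*, the light chain, changed less, with log2 fold changes of 0.17 in *Atm-/-* and 0.28 in *Sirt6-/-*. The RPKM ratio of *Fth1* to *Ftl1* was 0.645 to 0.666 in WT, 0.631 to 0.648 in *Atm-/-* and 1.21 to 1.28 in *Sirt6-/-*, so the heavy chain gained on the light chain in *Sirt6-/-*, while the range of *Atm-/-* overlapped that of WT. The small rises of *Fth1* (log2 fold change 0.14) and *Ftl1* in *Atm-/-* each lost the call when *Atm-/-* sample 2 or 3 was left out, and that of *Fth1* also without WT sample 2, at adjusted p of up to 0.0833 and 0.0544. Of the possible 50-base stretches of *Ftl1*, 50.9% also occur in other annotated genes, mostly pseudogenes, so its counts are uncertain.

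**Figure D3:**
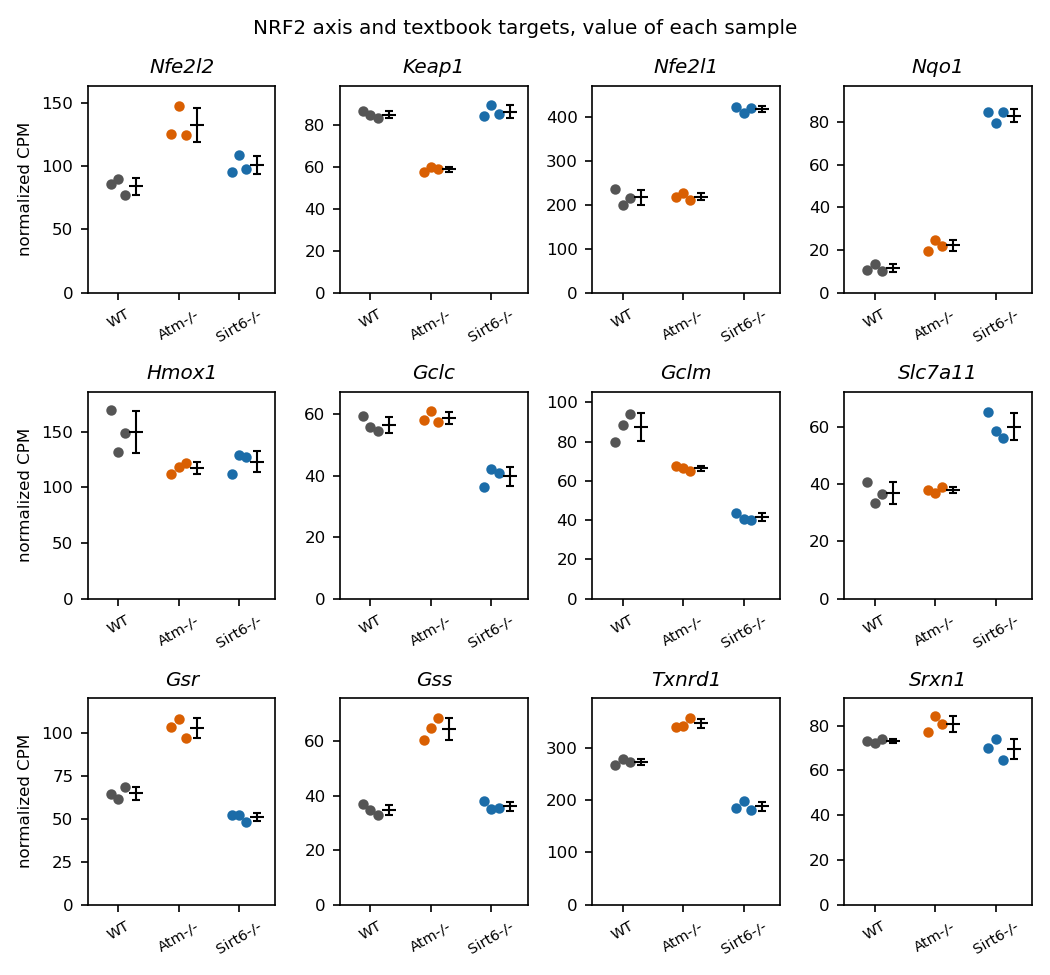
Normalized CPM of 12 genes of the NRF2 axis in each sample (points), with the mean and SD of the 3 samples of a genotype beside them, on linear axes that start at 0. *Nqo1* is highest in *Sirt6-/-* and *Gclm* lowest there, *Nfe2l2*, *Gsr*, *Gss* and *Txnrd1* are highest in *Atm-/-*, and *Keap1* is lowest in *Atm-/-*.

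In the glutathione group, both ligase subunits were lower and the cystine transporter higher in *Sirt6-/-*, and *Atm-/-* was higher for *Gss* and *Gsr*. Glutamate-cysteine ligase, which catalyses the rate-limiting step of glutathione synthesis, consists of a catalytic subunit (*Gclc*) and a modifier subunit (*Gclm*). *Gclm* was at 79.8, 88.3 and 94.2 CPM in WT, 67.4, 66.6 and 65.01 in *Atm-/-* and 43.8, 40.6 and 39.9 in *Sirt6-/-*. The 3 genotypes formed separate steps, with log2 fold changes of -0.41 (standard error 0.063, edgeR adjusted p = 4.50e-05) in *Atm-/-* and -1.08 (standard error 0.070, adjusted p = 2.52e-09) in *Sirt6-/-*. *Gclc* was at 59.4, 55.7 and 54.4 CPM in WT, 57.98, 60.9 and 57.3 in *Atm-/-* and 36.2, 42.2 and 40.9 in *Sirt6-/-*. It was lower in *Sirt6-/-* (log2 fold change -0.51, adjusted p = 1.38e-05), and its *Atm-/-* samples overlapped WT (log2 fold change 0.049, adjusted p = 0.486). The RPKM ratio of *Gclc* to *Gclm* was 0.349 to 0.450 in WT, 0.520 to 0.553 in *Atm-/-* and 0.499 to 0.629 in *Sirt6-/-*, so both mutants held less of the modifier RNA beside the catalytic RNA.

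*Slc7a11*, the exchanger that imports cystine for glutathione synthesis, was at 40.96, 33.3 and 36.6 CPM in WT, 38.1, 36.8 and 39.1 in *Atm-/-* and 65.4, 58.7 and 56.4 in *Sirt6-/-*. It was higher in *Sirt6-/-* (log2 fold change 0.70, edgeR adjusted p = 1.79e-06), in contrast to both ligase subunits, and *Atm-/-* overlapped WT. *Gss*, which joins glycine in the last step of synthesis, and *Gsr*, which reduces oxidized glutathione with NADPH, were highest in *Atm-/-*. *Gss* was at 60.4, 64.7 and 68.3 CPM in *Atm-/-* against 36.8, 34.7 and 32.9 in WT (log2 fold change 0.88, adjusted p = 3.59e-08) and did not pass the test in *Sirt6-/-* (log2 fold change 0.055, adjusted p = 0.498). *Gsr* was at 64.3, 61.1 and 68.5 CPM in WT, 103, 108 and 96.9 in *Atm-/-* and 52.3, 52.1 and 48.1 in *Sirt6-/-*. The mutants thus fell on opposite sides of WT, with log2 fold changes of 0.66 (adjusted p = 1.93e-07) and -0.34 (adjusted p = 0.000189).

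The thioredoxin system, which returns oxidized protein thiols to their reduced state, was split at its reductase. *Txnrd1*, the cytosolic thioredoxin reductase, was at 266, 279 and 273 CPM in WT, 340.2, 343 and 357 in *Atm-/-* and 185, 197 and 182 in *Sirt6-/-*. Without overlap, *Atm-/-* lay above WT (log2 fold change 0.34, standard error 0.042, edgeR adjusted p = 5.91e-06) and *Sirt6-/-* below it (log2 fold change -0.54, standard error 0.047, adjusted p = 8.93e-08). *Srxn1*, which repairs over-oxidized peroxiredoxins, was at 73.2, 72.4 and 74.1 CPM in WT, 77.1, 84.5 and 80.5 in *Atm-/-* and 70.02, 73.8 and 64.8 in *Sirt6-/-*. Its rise in *Atm-/-* was small (log2 fold change 0.13, adjusted p = 0.0411) and lost the call in 5 of the 6 fits that left out a sample, all but the fit without *Atm-/-* sample 1, and also without a filter on low counts (adjusted p = 0.0633). In *Sirt6-/-* *Srxn1* overlapped WT (log2 fold change -0.073, adjusted p = 0.272). *Txn1*, the cytosolic thioredoxin, rose in *Sirt6-/-* (0.44), and *Txn2*, the mitochondrial form, fell there (-0.69, both log2 fold changes), while in *Atm-/-* their values were 0.085 and -0.056 and did not pass the test. *Txnrd2*, the mitochondrial reductase, was expressed at 7.03 to 9.66 CPM and passed the test in neither mutant.

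The glutathione S-transferases, which conjugate glutathione to electrophiles, held the largest fall of the set in each mutant, that of *Gsta3* (log2 fold changes -7.66 and -7.97). In *Atm-/-* 3 of the 10 were higher and 4 lower, and in *Sirt6-/-* 5 were higher and 5 lower, with 4 of each past 2-fold. Of all genes tested, 34.7% were higher and 33.6% lower in *Atm-/-*. In *Sirt6-/-* these shares were 39.2% and 37.4%, and 29.3% passed 2-fold in either direction. Nothing is read from the counts about the family as a whole. Summed over the 10 genes, the transferase RNA was 614 ± 38.4 RPKM in WT, 591 ± 22.6 in *Atm-/-* and 626 ± 18.8 in *Sirt6-/-* (SD, n = 3 each). On this scale the sums of each mutant overlapped those of WT. RPKM is scaled by read totals and not by TMM, whose factors were 0.942 to 0.948 in WT, 1.051 to 1.054 in *Atm-/-* and 1.003 to 1.009 in *Sirt6-/-*. TMM would thus place the sums of both mutants lower beside WT, *Atm-/-* more so, and overlap was not examined on that scale. Shares of the sum within a sample are unaffected by the scaling. The make-up of that sum differed. *Mgst1* took 15.7% to 19.6% of it in WT, 5.01% to 6.41% in *Atm-/-* and 0.318% to 0.407% in *Sirt6-/-*. *Gsta4* took 12.8% to 16.7% in WT, 11.3% to 12.9% in *Atm-/-* and 1.20% to 1.30% in *Sirt6-/-*. In *Sirt6-/-* *Gstp1* rose to 45.9% to 46.3% of the sum from 26.3% to 31.8% in WT, and *Gstm1* to 17.9% to 20.2% from 1.76% to 2.16%. *Gsto1* took 33.2% to 35.8% in *Atm-/-* against 22.5% to 25.3% in WT.

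**Figure D4:**
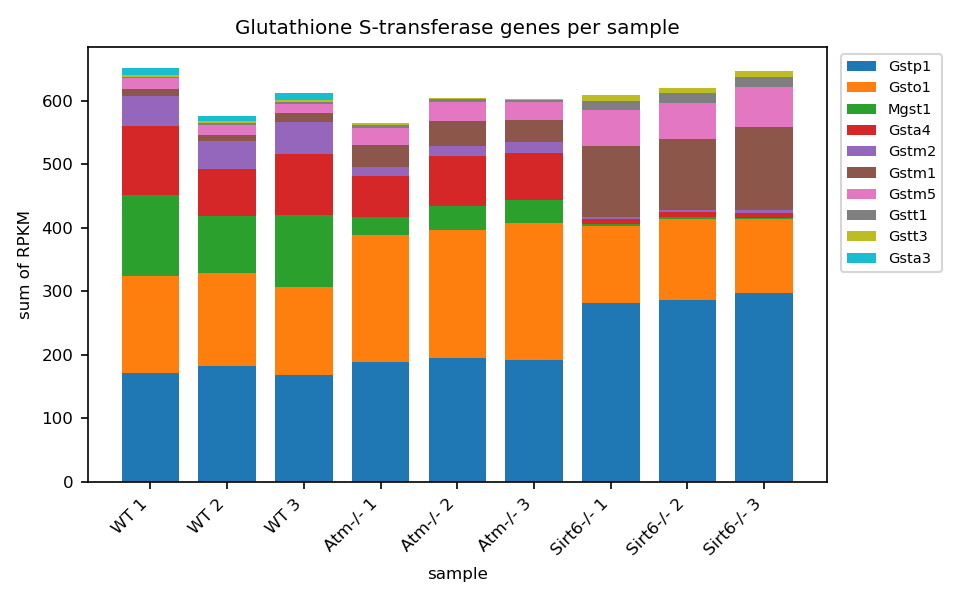
Sum of the RPKM of 10 glutathione S-transferase genes in each of the 9 samples, stacked by gene from a baseline of 0. The column heights lie between 565 and 652 RPKM, while the *Mgst1*, *Gsta4* and *Gstm2* segments seen in WT nearly vanish in *Sirt6-/-* and the *Gstm1* and *Gstm5* segments grow.

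*Mgst1*, a membrane-bound transferase with peroxidase activity (chromosome 6, 138140527 to 138156755), was at 128, 90.3 and 114 CPM in WT, 25.4, 34.9 and 31.9 in *Atm-/-* and 2.06, 2.38 and 1.95 in *Sirt6-/-*. The genotypes were separated by wide gaps, with log2 fold changes of -1.86 (standard error 0.12, edgeR adjusted p = 4.61e-09) in *Atm-/-* and -5.70 (standard error 0.14, adjusted p = 4.81e-14) in *Sirt6-/-*. *Gsta4*, the alpha-class enzyme for lipid aldehydes such as 4-hydroxynonenal, was at 111, 75.1 and 96.5 CPM in WT, 58.01, 71.2 and 67.4 in *Atm-/-* and 7.52, 7.17 and 7.44 in *Sirt6-/-*. It was moderately lower in *Atm-/-* (log2 fold change -0.53, adjusted p = 0.000660) and much lower in *Sirt6-/-* (-3.67, adjusted p = 1.61e-12). *Gsta3*, another alpha-class transferase, had 574, 372 and 603 reads in WT, 4, 3 and 1 in *Atm-/-* and 2, 4 and 0 in *Sirt6-/-*. Both mutants were thus close to no reads at all. The scaled read ratio of WT to mutant was 212 for *Atm-/-* (95% exact interval 107 to 491) and 268 for *Sirt6-/-* (123 to 732), where the interval covers counting error only, and both differences passed edgeR's test (adjusted p = 4.01e-11 and 6.18e-11).

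The mu-class genes *Gstm1*, *Gstm2* and *Gstm5* lie in one cluster on chromosome 3 and moved in different directions. *Gstm2* (107981702 to 107986420) was at 53.2, 48.6 and 56.4 CPM in WT, 15.2, 15.9 and 17.2 in *Atm-/-* and 3.16, 3.86 and 5.01 in *Sirt6-/-*. Its log2 fold change was -1.72 in *Atm-/-* (edgeR adjusted p = 1.30e-10) and -3.71 in *Sirt6-/-* (adjusted p = 1.58e-12). *Gstm1* (108012250 to 108017973), the next of the set along the chromosome, was at 15.8, 13.9 and 18.1 CPM in WT, 40.96, 48.4 and 44.1 in *Atm-/-* and 145, 143 and 169.7 in *Sirt6-/-*, with log2 fold changes of 1.47 and 3.26. *Gstm5* (107895854 to 107898685) also rose, by log2 fold changes of 0.67 and 1.83. The RPKM of *Gstm1* was 0.232 to 0.260 times that of *Gstm2* in WT, 2.07 to 2.46 times in *Atm-/-* and 27.4 to 37.0 times in *Sirt6-/-*, so the order of the genes turned over. Of the 50-base stretches of *Gstm1*, 18.9% also occur in other annotated genes, among them a pseudogene and *Gstm3*, and of those of *Gstm2* 5.65%, so reads could in part be shared.

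The theta-class genes *Gstt1* and *Gstt3* rose in *Sirt6-/-*, and in *Atm-/-* *Gstt1* passed the test only with library totals (log2 fold change 0.53) or without *Atm-/-* sample 3 (0.60). *Gstt3* was at 4.83, 4.06 and 4.41 CPM in WT, 4.702, 3.31 and 4.52 in *Atm-/-* and 17.1, 15.7 and 17.04 in *Sirt6-/-* (log2 fold change 1.91 in *Sirt6-/-*, edgeR adjusted p = 2.30e-09), and *Gstt1* had a log2 fold change of 2.18 there. Of the 50-base stretches of *Gstt3*, 12.5% also occur in other annotated genes. *Gstp1*, the pi-class enzyme with the highest RPKM of the transferases in *Sirt6-/-*, rose by 0.64 on the log2 scale in *Sirt6-/-*, and 33.7% of its 50-base stretches also occur in *Gstp2* or a pseudogene. *Gsto1*, an omega-class enzyme with reductase activity, was higher in *Atm-/-* (0.34) and lower in *Sirt6-/-* (-0.34).

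The peroxiredoxins, which reduce hydrogen peroxide through a reactive cysteine, were higher in *Sirt6-/-* for 4 of 6 genes, and *Prdx3* (log2 fold change 0.11) and *Prdx6* (-0.10) did not pass the test. The share of all tested genes called higher in *Sirt6-/-* was 39.2%, and nothing is read from this count about the family. *Prdx3* was called higher there with library totals (adjusted p = 0.00258) and with a stricter filter on low counts (0.0321). The summed level of the 6 peroxiredoxins was 899 ± 11.5 RPKM in WT, 1071 ± 53.3 in *Atm-/-* and 1372 ± 38.3 in *Sirt6-/-* (SD, n = 3 each), with no overlap of the genotypes on this scale. TMM would place both mutants lower beside WT, *Atm-/-* more so. The size of the rise of this sum in *Atm-/-* therefore depends on the scaling. *Prdx2*, the abundant cytosolic form, was at 221, 234 and 218 CPM in WT, 241, 259.8 and 236 in *Atm-/-* and 393, 399.8 and 421 in *Sirt6-/-* (log2 fold change 0.85 in *Sirt6-/-*, edgeR adjusted p = 4.48e-10). *Prdx5*, which is found in mitochondria and peroxisomes as well as the cytosol, rose by a log2 fold change of 0.91 in *Sirt6-/-* and had -0.13 in *Atm-/-*, where it did not pass the test. *Prdx1* and *Prdx4* rose by 0.34 and 0.34 in *Sirt6-/-*. In *Atm-/-* the calls were small, with *Prdx1* and *Prdx2* higher (log2 fold changes 0.18 and 0.12) and *Prdx6* lower (-0.15). The call of *Prdx2* in *Atm-/-* (adjusted p = 0.0412) was lost without WT sample 1 or 3 or *Atm-/-* sample 1 or 2, at adjusted p of up to 0.165, and with edgeR's exact test (0.0535). *Prdx3*, the mitochondrial form, was between 90.2 and 106 CPM in all samples.

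Of the glutathione peroxidases and catalase, 5 of 6 genes could be tested. *Gpx7*, a peroxidase of the endoplasmic reticulum (chromosome 4, 108400217 to 108406713), had 0, 0 and 2 reads in WT, 158, 150 and 142 in *Atm-/-* and 28, 16 and 32 in *Sirt6-/-*. It was all but unread in WT and clearly read in both mutants. The scaled read ratio of mutant to WT was 206 in *Atm-/-* (95% exact interval 56.6 to 1704) and 36.6 in *Sirt6-/-* (9.79 to 308), again for counting error only (edgeR adjusted p = 6.05e-09 and 5.96e-05). Because the WT reads all came from WT sample 3, leaving that sample out raised the fitted log2 fold change in *Atm-/-* from 7.44 to 10.18 and in *Sirt6-/-* from 4.96 to 7.64. *Gpx1*, the main cytosolic peroxidase, was lower in both mutants, at 268, 288 and 273 CPM in WT, 163, 174 and 165 in *Atm-/-* and 227, 240.2 and 234 in *Sirt6-/-*. *Gpx4*, which reduces lipid hydroperoxides and so guards against ferroptosis, was lower in *Sirt6-/-* (log2 fold change -0.41, adjusted p = 6.03e-07) and overlapped WT in *Atm-/-*. Of the 50-base stretches of *Gpx4*, 34.7% also occur in a pseudogene or another gene.

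*Gpx8*, a second peroxidase of the endoplasmic reticulum, was lower in *Atm-/-* (-0.24) and higher in *Sirt6-/-* (0.18), and the latter call was lost without WT sample 3 or *Sirt6-/-* sample 3 (adjusted p of up to 0.110). *Cat*, the peroxisomal catalase, was at 59.5, 50.04 and 50.6 CPM in WT, 50.5, 54.2 and 54.3 in *Atm-/-* and 77.5, 76.8 and 79.5 in *Sirt6-/-*, with a rise in *Sirt6-/-* (log2 fold change 0.55, edgeR adjusted p = 4.19e-06). The summed RPKM of this group was 645 ± 10.2 in WT, 602 ± 27.4 in *Atm-/-* and 585 ± 8.02 in *Sirt6-/-* (SD, n = 3 each). These sums are scaled by read totals, and TMM would place both mutants lower beside WT, *Atm-/-* more so. The order of the mutants in this sum therefore depends on the scaling.

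The superoxide dismutases differ by compartment, with *Sod1* in the cytosol, *Sod2* in mitochondria and *Sod3* secreted to the matrix. *Sod3* (chromosome 5, 52363804 to 52369738) was at 4.39, 5.18 and 4.32 CPM in WT, 19.2, 19.8 and 18.8 in *Atm-/-* and 108, 114 and 117 in *Sirt6-/-*. The levels rose in steps without overlap, with log2 fold changes of 2.05 (standard error 0.12, edgeR adjusted p = 1.07e-09) in *Atm-/-* and 4.61 (standard error 0.082, adjusted p = 1.09e-15) in *Sirt6-/-*. *Sod2* was at 113, 112 and 114 CPM in WT, 96.8, 93.6 and 100.2 in *Atm-/-* and 192, 217 and 201 in *Sirt6-/-*, higher than WT in *Sirt6-/-* (log2 fold change 0.84, adjusted p = 1.32e-09) and slightly lower in *Atm-/-* (-0.23, adjusted p = 0.000652). The lower *Sod2*, *Gpx8* and *Prdx6* of *Atm-/-* were each not called with library totals in place of TMM, and *Prdx6* then had a log2 fold change of 0.012. Of the 50-base stretches of *Sod2*, 21.0% also occur in 202 other annotated genes, so part of its reads could be shared. *Sod1* was lower in both mutants, by log2 fold changes of -0.43 and -0.23. Per length, *Sod1* held 92.7% to 93.5% of the summed dismutase RPKM in WT and 75.4% to 77.9% in *Sirt6-/-*, where *Sod3* held 11.5% to 12.2% against 0.437% to 0.582% in WT.

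**Figure D5:**
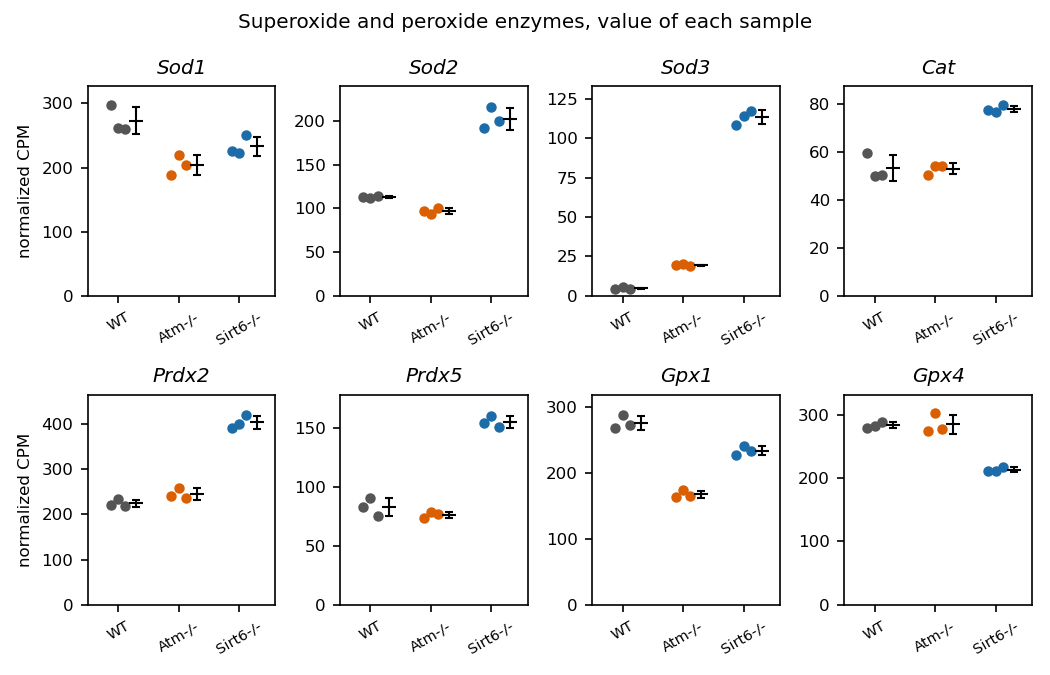
Normalized CPM of 8 superoxide and peroxide enzymes in each sample (points), with the mean and SD of the 3 samples of a genotype, on linear axes that start at 0. *Sod2*, *Sod3*, *Cat*, *Prdx2* and *Prdx5* are highest in *Sirt6-/-*, *Gpx4* is lowest there, and *Sod1* and *Gpx1* are lowest in *Atm-/-*.

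Among the other detoxification genes, *Aldh3a1*, an aldehyde dehydrogenase (chromosome 11, 61208510 to 61218418), had 2, 3 and 2 reads in WT, 244, 284 and 263 in *Atm-/-* and 203, 208 and 192 in *Sirt6-/-*. WT was at about the level of 3 reads, and every mutant sample had over 100. The scaled read ratio of mutant to WT was 103 in *Atm-/-* (95% exact interval 49.9 to 258) and 83.0 in *Sirt6-/-* (40.0 to 207), for counting error only, and both passed edgeR's test (adjusted p = 7.06e-11 and 2.03e-10). *Ephx1*, the microsomal epoxide hydrolase (chromosome 1, 180989556 to 181017569), was at 131, 80.95 and 109 CPM in WT, 8.71, 14.9 and 11.5 in *Atm-/-* and 32.4, 31.8 and 35.3 in *Sirt6-/-*. Both mutants lay below WT, and here *Atm-/-* was the lower, with log2 fold changes of -3.20 (standard error 0.18, adjusted p = 6.97e-10) and -1.69 (standard error 0.13, adjusted p = 1.49e-08). *Akr1b8*, an aldo-keto reductase, was at 52.1, 51.9 and 50.04 CPM in WT, 104, 118 and 108 in *Atm-/-* and 36.2, 40.1 and 39.2 in *Sirt6-/-*, above WT in *Atm-/-* (log2 fold change 1.09) and below it in *Sirt6-/-* (-0.41). *Me1*, malic enzyme, which supplies NADPH, was lower in both mutants (-0.39 and -0.29), and 22.9% of its 50-base stretches also occur in 2 other annotated genes. *Abcc1*, the exporter of glutathione conjugates, rose in *Sirt6-/-* (0.88) and had 0.12 in *Atm-/-*, where it did not pass the test (adjusted p = 0.0523). It was called higher in *Atm-/-* with DESeq2 size factors (adjusted p = 0.0403), with a stricter filter on low counts (0.0350), with all 9 samples in one fit (0.0344) and with library totals (2.37e-04).

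The direct comparison of *Sirt6-/-* with *Atm-/-* tests the differences between the mutants, with 45 of the 47 genes tested. *Sirt6-/-* was higher for 24 genes (53.3%, against 37.8% of the 13460 genes tested) and lower for 16 (35.6%, against 38% of all), and 16 genes (35.6%, against 25.5% of all) also passed 2-fold. The median log2 difference was 0.18 over the 45 genes and -0.0021 over all genes. The members named next had the largest fold changes among those picked for a call and for samples that did not overlap. They were *Mgst1* (-3.86), *Gsta4* (-3.16), *Sod3* (2.55), *Gpx7* (-2.49), *Gstm2* (-2.01) and *Gstt3* (1.98, all log2 fold changes of *Sirt6-/-* over *Atm-/-*), each with an edgeR adjusted p of at most 2.24e-08. *Nqo1* (1.90), *Nfe2l1* (0.93), *Keap1* (0.55) and *Slc7a11* (0.66) were higher in *Sirt6-/-*. *Nfe2l2* (-0.40), *Gclc* (-0.57), *Gclm* (-0.69), *Gsr* (-1.02), *Gss* (-0.84), *Txnrd1* (-0.89), *Srxn1* (-0.22) and *Akr1b8* (-1.52) were lower. All 3 superoxide dismutases were higher in *Sirt6-/-* than in *Atm-/-*, and so were 4 of the 6 peroxiredoxins. *Hmox1*, *Me1*, *Prdx3*, *Prdx6* and *Txnrd2* did not pass the test, with log2 fold changes between 0.036 and 0.18. The calls of *Ftl1*, *Prdx1*, *Prdx4* and *Aldh3a1* were each lost with some sample left out, for the first 3 when *Sirt6-/-* sample 3 or *Atm-/-* sample 1 was left out, at adjusted p of up to 0.222, and for *Aldh3a1* in 4 of 6 fits, without *Sirt6-/-* sample 1 or 3 or *Atm-/-* sample 2 or 3, at up to 0.117. Library totals also ended the calls of *Ftl1*, *Prdx1* and *Prdx4* (adjusted p of 0.349, 0.113 and 0.0516). The call of *Ftl1* was lost as well with all 9 samples in one fit (0.0754), the DESeq2 Wald test (0.0520) and edgeR's exact test (0.0512), and that of *Aldh3a1* with all 9 samples in one fit (0.0657), the Wald test (0.0593) and the replicate block (0.0502).

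Of 80 further genes of the same pathways, listed by function, 64 could be tested in *Atm-/-* and 66 in *Sirt6-/-*. In *Atm-/-* 19 were higher and 32 lower, and in *Sirt6-/-* 27 were higher and 27 lower. Among 12 NRF2 partners and regulators, 11 were tested in each mutant. In *Atm-/-* 2 were higher (*Mafg* and *Sqstm1*) and 6 lower (*Maff*, *Bach1*, *Nfe2l3*, *Cul3*, *Gsk3b* and *Btrc*), and in *Sirt6-/-* 1 was higher (*Btrc*) and 6 lower (*Mafk*, *Maff*, *Bach2*, *Nfe2l3*, *Cul3* and *Gsk3b*). Of these, *Nfe2l3*, a relative of NRF2, had the largest fall in *Sirt6-/-*, from 13.1, 12.6 and 15.05 CPM in WT to 0.706, 0.216 and 0.360 (log2 fold change -4.98, edgeR adjusted p = 1.64e-10), with 3.98, 4.77 and 4.43 CPM in *Atm-/-*. Of 16 tested genes also reported as NRF2 targets, 4 were higher and 9 lower in *Atm-/-*, and 10 were higher and 4 lower in *Sirt6-/-*. *Abcc3*, an exporter of conjugates, rose most there, from 0.314, 0.256 and 0.317 CPM in WT to 5.03, 6.09 and 5.91 in *Sirt6-/-* (log2 fold change 4.25, adjusted p = 2.02e-09). Over all genes tested, 34.7% were higher and 33.6% lower in *Atm-/-* and 39.2% and 37.4% in *Sirt6-/-*, and nothing is read from them about the lists as wholes.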

How the data were processed

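Per the labels, mRNA was enriched with oligo(dT) beads before Illumina sequencing. The authors deposited for each sample a read count per gene, as whole numbers without normalization, and RPKM, which are the same counts over a listed gene length and the sample's read total. The submitters' processing notes name mm10 as the build, and the aligner and counter are not given in the sources used here.

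Each pair of genotypes (6 samples) was fitted over all genes with edgeR 4.0.16 in R 4.3.3 (filterByExpr, TMM, glmQLFit with a prior count of 0.125, two-sided glmQLFTest), and p-values were adjusted with the Benjamini-Hochberg method. Standard errors come from the F statistic. Fold changes of genes with few reads depend on the prior count, so read ratios with exact intervals were given for them. Normalized CPM use TMM over the 9 samples. Samples of one genotype differed by more than counting noise (chi-square per gene 5.11 to 15.6). The pairs that hold WT sample 2 gave 15.6 and 14.4, and the other pairs 5.11 to 6.66. WT sample 2 thus stood apart, and it is used in both comparisons with WT. The steps were also run on simulated counts in which few genes were changed, as many up as down. That setting cannot test the scaling, on which the counts of calls in *Atm-/-* depend, and nothing is read from it here.

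The members, gene lists and tests were chosen with earlier results of these data known. Values in every sample are given for the regulators and textbook targets, and for the 6 members with the largest fold change of each comparison among those called, with separate samples and a mean log2 CPM from 1 upwards. The wider list names 4 likewise. Alternatives were DESeq2 size factors, library totals, no filter, a mean of at least 50 counts, a fit of all 9 samples, a block on replicate number, the DESeq2 1.42.0 Wald test, edgeR's exact test, a 2-fold threshold and each sample left out in turn.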

Additional observations from a re-analysis of the deposited data

How the results depend on the processing

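With library totals in place of TMM, 28 members were called higher in *Atm-/-* against 17, and over all genes tested 6156 against 4611. The sign changed with library totals in *Atm-/-* for *Txn2* (log2 fold change 0.11), *Gstp1* (0.14), *Gstt3* (0.069), *Prdx5* (0.037), *Prdx6* (0.012), *Gpx4* (0.16) and *Cat* (0.15), in *Sirt6-/-* for *Srxn1* (0.016), and between the mutants for *Prdx6* (-0.023). *Gpx4* in *Atm-/-* was also at 0.0047 with DESeq2 size factors, 0.010 with the stricter filter, 0.0057 with all 9 samples in one fit and 0.0041 with the DESeq2 Wald test, and *Txnrd2* in *Sirt6-/-* at -0.00018 with that Wald test. Requiring 2-fold as well left 5 higher and 4 lower in *Atm-/-*, 9 and 6 in *Sirt6-/-*, and 10 and 6 between the mutants. These are 19.6%, 32.6% and 35.6% of the members tested, against 22.5%, 29.3% and 25.5% of all genes tested.

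With each sample left out in turn, values whose sign changed ranged, in *Atm-/-*, from -0.054 to 0.066 for *Nfe2l1*, -0.038 to 0.11 for *Slc7a11*, -0.048 to 0.013 for *Gstp1*, -0.18 to 0.057 for *Gstt3*, -0.013 to 0.069 for *Prdx3*, -0.039 to 0.034 for *Gpx4* and -0.063 to 0.070 for *Cat*. They ranged in *Sirt6-/-* from -0.00097 to 0.045 for *Keap1* and -0.066 to 0.054 for *Txnrd2*, and between the mutants from -0.0052 to 0.061 for *Prdx6*. Of the called members, 4 of 31 in *Atm-/-*, 1 of 40 in *Sirt6-/-* and 4 of 40 between the mutants lost the call in at least 1 such fit. Of the members not called, 5 of 15 in *Atm-/-* gained a call in at least 1 such fit (*Txn1*, *Gstt1*, *Prdx4*, *Prdx5* and *Abcc1*). So did 2 of 6 in *Sirt6-/-* (*Prdx3* and *Prdx6*) and 2 of 5 between the mutants (*Hmox1* and *Me1*). The cause of these changes was not tested.

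The labels number the samples 1 to 3 in each genotype. Deviations of same-numbered samples correlated at -0.020 to 0.076 (9 pairs) and those of differently numbered samples at -0.092 to 0.061. By this measure, taken over all expressed genes, no pairing by number showed. Deviations from a mean of 3 samples cannot exclude a pairing, or one that touches only some genes. With the replicate number as a block, 16 members were higher and 14 lower in *Atm-/-* (*Srxn1* lost, adjusted p = 0.0699), 23 and 17 in *Sirt6-/-*, and 24 and 15 between the mutants (*Aldh3a1* lost, adjusted p = 0.0502). Over all genes tested, this block gave 4482 higher and 4351 lower of 13283 in *Atm-/-*. It gave 5146 and 4895 of 13206 in *Sirt6-/-*, and 5065 and 5092 of 13460 between the mutants. Genes near 3 reads, such as *Gpx7* in WT, have fold changes limited by depth. Genes all but unread in a genotype were tested through the other genotype and could be called only in its direction. These include *Gpx7*, *Aldh3a1* and *Cbs* in WT and *Gsta3* in the mutants.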

Other observations

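Other glutathione and redox genes of the wider list changed as well. Beside the counts that follow, the share of all tested genes called higher was 34.7% in *Atm-/-* and 39.2% in *Sirt6-/-*, and the share called lower was 33.6% and 37.4%. Of the other glutathione transferases, 4 of 6 tested were higher and 1 lower in *Atm-/-*, and 7 of 9 were higher in *Sirt6-/-* by edgeR's quasi-likelihood test at adjusted p under 0.05. *Gstm7*, *Gstk1* and *Gstt2* had enough reads to be tested only through the *Sirt6-/-* samples. A call could only be higher for them, so nothing is read from the 7 of 9. The other 2 of these 9, *Gstp2* and *Gstcd*, were not called there, at adjusted p of 0.0603 and 0.0546. *Mgst3*, a membrane-bound transferase of the family of *Mgst1*, was at 1.25, 0.607 and 1.11 CPM in WT, 17.6, 29.1 and 21.1 in *Atm-/-* and 10.5, 12.6 and 13.2 in *Sirt6-/-*, with log2 fold changes of 4.50 (edgeR adjusted p = 4.43e-10) and 3.60 (adjusted p = 1.16e-09). *Mgst2*, of the same family, was at 0.878, 0.480 and 0.349 CPM in WT, 6.87, 8.74 and 7.12 in *Atm-/-* and 5.58, 4.295 and 6.87 in *Sirt6-/-*. Both lay above WT in each mutant, where *Mgst1* lay below it. Of the 10 glutathione turnover genes tested, 7 were lower and 2 higher in each mutant. *Ggct*, which cleaves gamma-glutamyl dipeptides, had 530, 577 and 498 reads in WT, 168, 190 and 184 in *Atm-/-* and 52, 73 and 50 in *Sirt6-/-*, and *Ggt7*, a gamma-glutamyltransferase family gene, was at 12.4, 14.4 and 13.5 CPM in WT, 3.38, 3.34 and 3.93 in *Atm-/-* and 2.95, 3.96 and 3.24 in *Sirt6-/-*. *Cbs*, which makes cystathionine on the way from homocysteine to cysteine, had 0 reads in each WT sample, 46, 49 and 32 in *Atm-/-* and 30, 19 and 20 in *Sirt6-/-*, and was named after its values were seen.

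Of the 16 other thioredoxin, glutaredoxin and sestrin genes, 5 were higher and 6 lower in *Atm-/-*, and 6 were higher and 8 lower in *Sirt6-/-*. *Glrx*, a cytosolic glutaredoxin named after its values were seen, was at 21.99, 21.9 and 22.2 CPM in WT, 29.05, 35.5 and 28.4 in *Atm-/-* and 142, 170.1 and 154 in *Sirt6-/-*. Among the genes that make superoxide or peroxide, 2 were higher and 3 lower of 5 tested in *Atm-/-*, and 1 was higher and 2 lower of 4 tested in *Sirt6-/-*. *Cyba*, the p22phox subunit that NADPH oxidases need, was at 70.8, 75.04 and 73.9 CPM in WT, 31.8, 33.8 and 34.8 in *Atm-/-* and 0.982, 0.834 and 0.660 in *Sirt6-/-* (log2 fold change -6.47 in *Sirt6-/-*, edgeR adjusted p = 8.85e-16). *Nox4*, an oxidase of fibroblasts that binds p22phox, moved the other way, at 1.76, 2.05 and 1.24 CPM in WT, 4.15, 3.797 and 4.34 in *Atm-/-* and 8.100, 8.68 and 7.53 in *Sirt6-/-*, and was likewise named after its values were seen.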
